A study of Mus musculus with 18 samples.

Results

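Solute carriers are membrane proteins that move amino acids, sugars, nucleosides, vitamins, metals and inorganic ions across the plasma membrane and the membranes of organelles. Solute carrier genes are taken here as the rows of the deposited count table whose symbol starts with Slc and a family number and whose level averaged at least 5 CPM (the count of a gene divided by the total of its library, times 1000000) over 18 libraries. Of 369 such Slc rows, 148 reached that level, and they are called members below; the whole table has 23420 rows. The remaining 221 rows averaged less, and 37 of them had no count in any library. Members were thus chosen by their mean level over all groups, and a member that is low in one state can reach the limit through the other.

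The libraries were made by RNA-seq from sorted mouse regulatory T cells (Treg), the CD4 T cells that restrain other immune cells. The labels name 3 genotypes, FCre x C1fl/fl, FCre x C1fl/+ and FCre x C1+/+, written here as fl/fl, fl/+ and +/+, so that FCre is carried by every group and fl marks a floxed allele of C1. Each genotype was sorted in 2 states, effector and resting, with batch numbers 1 to 3, which gives 6 groups of 3 libraries. What FCre stands for, where it is active, which part of the floxed gene is flanked, and the age and sex of the mice and the gates of the sort are not stated in the labels or files. The labels do not say that the batches are separate animals, so p-values measure the spread between these samples.

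Each library held between 1658073 and 5756903 expected counts (median 3154386). Of the Treg list (Foxp3, Il2ra, Ctla4, Ikzf2, Tnfrsf18, Cd4 and Cd3e), 7 of 7 genes had counts, with a summed mean of 2159 to 3425 CPM per group. Libraries were uneven inside some groups: on the first axis of a principal component analysis (59.7% of the variance) the fl/fl effector libraries were at 27.4, 1.4 and 9.8, against 22.5 to 38.2 for the other effector libraries. Resting library 1 of fl/fl was at -12.6, against -34.6 to -21.6 for the other resting libraries.

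Members belong to numbered families that share sequence and, in most cases, a kind of substrate. Many plasma membrane carriers are driven by the sodium gradient that the sodium/potassium pump maintains. Most of family 25 lies in the inner mitochondrial membrane, and family 35 brings nucleotide sugars into the endoplasmic reticulum and Golgi. T cells are known to change amino acid, glucose and phosphate uptake when they are activated. By family number, the members fell into 42 of the 49 families with a row. Family 25 had 32 members, family 35 had 18 of its 27 rows and family 39, the zinc importers, 10 of 14. They were grouped here into 7 substrate classes: mitochondrial carriers (32 members, all of family 25), nucleotide sugar and other endomembrane carriers (22), carriers of amino acids and peptides (20), of inorganic ions and pH (20), of metals (20), of sugars, monocarboxylates and nucleosides (17), and of vitamins, lipids, organic ions and vesicular cargo (17). The symbols of 4 members belong to genes that are not carriers themselves: the scaffold Slc9a3r1, the adaptor Slc4a1ap, the pseudogene Slc2a4rg-ps and Slc7a6os, which lies on the strand opposite Slc7a6.

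All 148 members had counts in every library and passed the filter on low counts, so all were tested. At the edge of the rule, Slc25a15 (5.40 CPM), Slc19a2 (5.24) and Slc25a27 (5.14) were just inside, and Slc18b1 (4.98), Slc37a2 (4.95) and Slc12a2 (4.92) just outside. Among the members, 13, including Slc39a4, Slc43a3, Slc22a15, Slc52a3 and Slc25a23, were below 5 CPM in at least 1 group. Several carriers that are well known in activated T cells or in iron and zinc handling did not reach the limit: Slc7a5, the light chain that pairs with Slc3a2 for large neutral amino acids, averaged 2.68 CPM. Below it too were the zinc exporter Slc30a1 at 3.31 CPM, the aspartate/glutamate carrier Slc25a13 at 4.44 CPM, the endosomal metal carrier Slc11a1 at 0.551 CPM and the iron exporter Slc40a1 at 0.0261 CPM.

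Per length of transcript, in the FPKM values deposited by the authors, mitochondrial carriers made up the largest part, with a summed mean of 1287 FPKM, against 277 to 342 FPKM for each of the other 6 classes. Slc25a5, an ADP/ATP translocase, averaged 433 FPKM over the 18 libraries and the phosphate carrier Slc25a3 averaged 351 FPKM. The next were the choline transporter-like gene Slc44a2 (165 FPKM), the sugar efflux carrier Slc50a1 (116), the scaffold Slc9a3r1 (106), the glutamine carrier Slc1a5 (94.5), the second ADP/ATP translocase Slc25a4 (89.0), the oxoglutarate carrier Slc25a11 (64.3), the endoplasmic reticulum zinc channel Slc39a7 (62.2), the amino acid carrier heavy chain Slc3a2 (57.0) and the nucleoside carriers Slc29a1 (56.2) and Slc28a2 (51.9). Together the members took 0.803%, 0.805% and 0.815% of the counts in fl/fl, fl/+ and +/+ effector cells and 0.751%, 0.754% and 0.748% in resting cells in the same order.

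**Figure D1:**
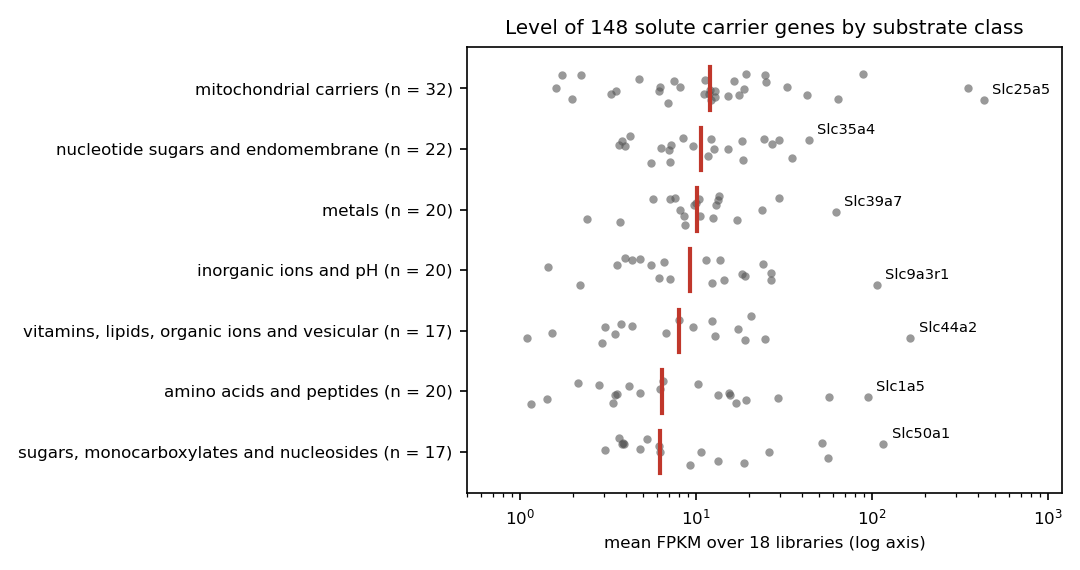
Each point is 1 of the 148 members at its mean FPKM over 18 libraries (log axis), in rows by substrate class with the number of members, and the red line is the median of the class. Slc25a5 at 433 FPKM and Slc25a3 at 351 FPKM lie to the right of every other member, and the highest gene of each class is named.

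The state of the cells was compared within each genotype, with the test of edgeR (quasi-likelihood, on expected counts rounded to whole numbers) and a call at an adjusted p under 0.05 over all 10630 genes tested, with no limit on the fold. This fit used a mean for each group and did not pair libraries by batch number. Changes are log2 differences, effector minus resting, after TMM scaling, while the CPM values are not rescaled. In fl/fl cells 8 members were called, 6 higher and 2 lower, or 5.41% of members, where 6.34% of all genes tested were called. In fl/+ cells 26 were called, 16 higher and 10 lower, or 17.6% against 16.3% of all genes. In +/+ cells 29 were called, 24 higher and 5 lower, or 19.6% against 16% of all genes. The members were thus called about as often as genes in general in every genotype. In bulk RNA such as this, fewer cells of a type and less RNA per cell cannot be told apart. With log2(FPKM + 1) in limma in place of counts, 6 rose and 0 fell in fl/fl and 19 rose and 4 fell in fl/+. Of all genes, 6.74% and 15.4% were called there. With the size factors of DESeq2 in edgeR 6 rose and 1 fell in fl/fl, where 6.26% of all genes were called. By direction, all genes were called higher in 5.01%, 9.72% and 9.49% and lower in 1.33%, 6.58% and 6.5% in fl/fl, fl/+ and +/+ cells. Median changes of the members were 0.04, 0.02 and 0.10 in that order, against -0.01 in each genotype over all genes tested. Libraries of the 2 states did not overlap for 28 members in fl/fl (21.6% of all genes), 56 in fl/+ (34.5%) and 59 in +/+ (32%).

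These counts depend in part on single libraries. The fl/fl count was 4 without fl/fl effector library 1 or fl/fl resting library 3, and 12 without fl/fl effector library 2. Without fl/+ effector library 3 the fl/+ count was 16, and without +/+ effector library 1 the +/+ count was 18. How many of all genes were called with a library left out was not counted, so these moves may not be particular to the members. With the batch number as a term in the fit (batch term below), all calls were kept and the counts were 11, 31 and 35 in fl/fl, fl/+ and +/+ cells, where 7.86%, 19.2% and 18.6% of all genes were called. With a batch within each genotype as a block they were 13, 35 and 39, where 10.1%, 21.3% and 20.5% of all genes were called.

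Between the states, 5 members rose in all 3 genotypes and 1 fell in all 3. Those that rose were Slc29a1, Slc39a4, Slc43a3, Slc9a7 and Slc25a4, and the one that fell was Slc44a2. Another 9 rose in fl/+ and +/+ cells without a call in fl/fl, 10 rose in +/+ alone among the calls, 2 in fl/+ alone and 1, Slc19a1, in fl/fl alone. Of those that fell, 3 were called in fl/+ and +/+, 1 in +/+, 5 in fl/+ and 1, Slc39a7, in fl/fl and fl/+. Calls in 1 genotype and not another do not show that the genotypes differ: the interaction, which is the change in fl/fl less the change in +/+, was called for no member by edgeR or by DESeq2. Over all genes tested edgeR called 0% for the interaction, DESeq2 0.16%, edgeR with the batch term 0.0282% and edgeR with a batch within each genotype as a block 1.13%, with 0 members in each. At an unadjusted p under 0.05 edgeR gave 6 members, or 4.05%, against 8.97% of all genes.

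Slc29a1 (chr17:45585200-45599606, minus strand, GENCODE M21 on mm10) encodes the equilibrative nucleoside transporter ENT1, which lets adenosine and other nucleosides pass in either direction. Slc29a1 in effector cells was at 116, 107 and 129 CPM in the fl/fl libraries, 160.3, 139.5 and 185 CPM in the fl/+ libraries and 136, 189.9 and 156 CPM in the +/+ libraries. In resting cells it was at 61.5, 72.7 and 72 CPM in fl/fl, 64.6, 71.8 and 75.1 CPM in fl/+ and 75.8, 74.5 and 50.9 CPM in +/+. Every effector library lay above every resting library, and the fl/fl effector libraries lay below the other effector libraries. For Slc29a1 the log2 difference was 0.68 (SE 0.16, adjusted p = 0.0136) in fl/fl, 1.11 (SE 0.16, adjusted p = 8.76e-05) in fl/+ and 1.15 (SE 0.16, adjusted p = 6.98e-05) in +/+ cells. The fl/fl call was lost without fl/fl effector library 3 or fl/fl resting library 1 (adjusted p 0.0558 to 0.0572). A predicted gene, Gm17080, overlaps its exons on the other strand, and the labels do not say whether the counting used strand.

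Slc39a4 (chr15:76612383-76617384, minus strand) encodes ZIP4, which imports zinc. It was at 21.4, 5.07 and 12.7 CPM in the fl/fl libraries, 26.1, 17.3 and 29.9 CPM in the fl/+ libraries and 23.1, 29.1 and 22.1 CPM in the +/+ libraries in effector cells. Slc39a4 in resting cells was at 4.18, 3.46 and 1.38 CPM in fl/fl, 4.57, 2.65 and 2.27 CPM in fl/+ and 2.95, 3.46 and 5.87 CPM in +/+. The fl/fl effector libraries spread widely, and the lowest, at 5.07 CPM, was below the highest +/+ resting library. For Slc39a4 the log2 difference was 2.09 (SE 0.45, adjusted p = 0.00841) in fl/fl, 2.74 (SE 0.42, adjusted p = 0.000174) in fl/+ and 2.52 (SE 0.43, adjusted p = 0.000371) in +/+ cells, the largest among the calls in each genotype. Its fl/fl call was lost without fl/fl effector library 1 or fl/fl resting library 3 (adjusted p 0.0602 to 0.145).

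Slc43a3 (chr2:84936579-84958509, plus strand) has the number of a family of amino acid carriers, although its human protein is known to carry purine nucleobases. Effector libraries of Slc43a3 were at 13.1, 12.2 and 15.7 CPM in the fl/fl libraries, 10.6, 12.1 and 14.5 CPM in the fl/+ libraries and 12.8, 10.2 and 14.9 CPM in the +/+ libraries. Resting libraries had 3.88, 4.5 and 3.87 CPM in fl/fl, 3.33, 3.78 and 5 CPM in fl/+ and 5.91, 4.23 and 5.48 CPM in +/+. Effector libraries were about alike across genotypes and all above the resting ones. For Slc43a3 the log2 difference was 1.63 (SE 0.27, adjusted p = 0.00123) in fl/fl, 1.55 (SE 0.27, adjusted p = 0.000499) in fl/+ and 1.17 (SE 0.26, adjusted p = 0.00414) in +/+ cells, and each call held when any 1 of the 6 libraries of its contrast was left out.

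Slc9a7 (chrX:20105754-20291807, minus strand) encodes NHE7, a cation/proton exchanger of the trans-Golgi network and endosomes. Levels of Slc9a7 in effector cells were 17.4, 12.5 and 15.4 CPM in the fl/fl libraries, 27.6, 17.6 and 25.4 CPM in the fl/+ libraries and 33.3, 36 and 22.5 CPM in the +/+ libraries. Its resting levels were 8.28, 5.54 and 2.49 CPM in fl/fl, 8.52, 9.45 and 7.28 CPM in fl/+ and 10.8, 12.7 and 7.83 CPM in +/+. The fl/fl effector libraries were all below the +/+ effector libraries, and fl/fl resting libraries were the lowest on average. For Slc9a7 the log2 difference was 1.41 (SE 0.32, adjusted p = 0.0113) in fl/fl, 1.38 (SE 0.29, adjusted p = 0.00225) in fl/+ and 1.44 (SE 0.29, adjusted p = 0.00147) in +/+ cells. The fl/fl call was lost without fl/fl effector library 1 or fl/fl resting library 3 (adjusted p 0.0686 to 0.0711).

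Slc25a4 (chr8:46206797-46211284, minus strand) encodes ANT1, an ADP/ATP translocase of the inner mitochondrial membrane. Slc25a4 had 105, 98.7 and 134 CPM in the fl/fl libraries, 99.2, 90.2 and 122 CPM in the fl/+ libraries and 126, 115 and 119 CPM in the +/+ libraries in effector cells. In resting cells Slc25a4 had 66.2, 58.1 and 64.5 CPM in fl/fl, 56.5, 64.6 and 67.8 CPM in fl/+ and 89.1, 71.5 and 66.9 CPM in +/+. The effector libraries of each genotype were all above its resting libraries. For Slc25a4 the log2 difference was 0.74 (SE 0.14, adjusted p = 0.00351) in fl/fl, 0.63 (SE 0.14, adjusted p = 0.00371) in fl/+ and 0.56 (SE 0.14, adjusted p = 0.00876) in +/+ cells. Its +/+ call was lost without +/+ resting library 3 (adjusted p = 0.0543). The other, more abundant translocase, Slc25a5, was not called between states: its log2 difference was 0.17 (adjusted p = 0.416) in fl/fl, 0.02 (adjusted p = 0.949) in fl/+ and -0.20 (adjusted p = 0.238) in +/+ cells.

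Slc44a2 (chr9:21320698-21355028, plus strand) encodes CTL2, a choline transporter-like protein of the plasma membrane and mitochondria, and is the member with the highest CPM of its class. It was at 468, 565 and 612 CPM in the fl/fl libraries, 446, 426 and 434 CPM in the fl/+ libraries and 409, 392 and 458 CPM in the +/+ libraries in effector cells. Slc44a2 in resting cells was at 634, 676 and 685 CPM in fl/fl, 614, 634 and 698 CPM in fl/+ and 592, 569.9 and 684 CPM in +/+. Resting libraries were above the effector libraries in every genotype, by a smaller margin in fl/fl. For Slc44a2 the log2 difference was -0.36 (SE 0.10, adjusted p = 0.045) in fl/fl, -0.67 (SE 0.10, adjusted p = 0.000188) in fl/+ and -0.65 (SE 0.11, adjusted p = 0.000266) in +/+ cells. The fl/fl call was lost without fl/fl effector library 1 or 2 or fl/fl resting library 2 or 3 (adjusted p 0.059 to 0.301).

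**Figure D2:**
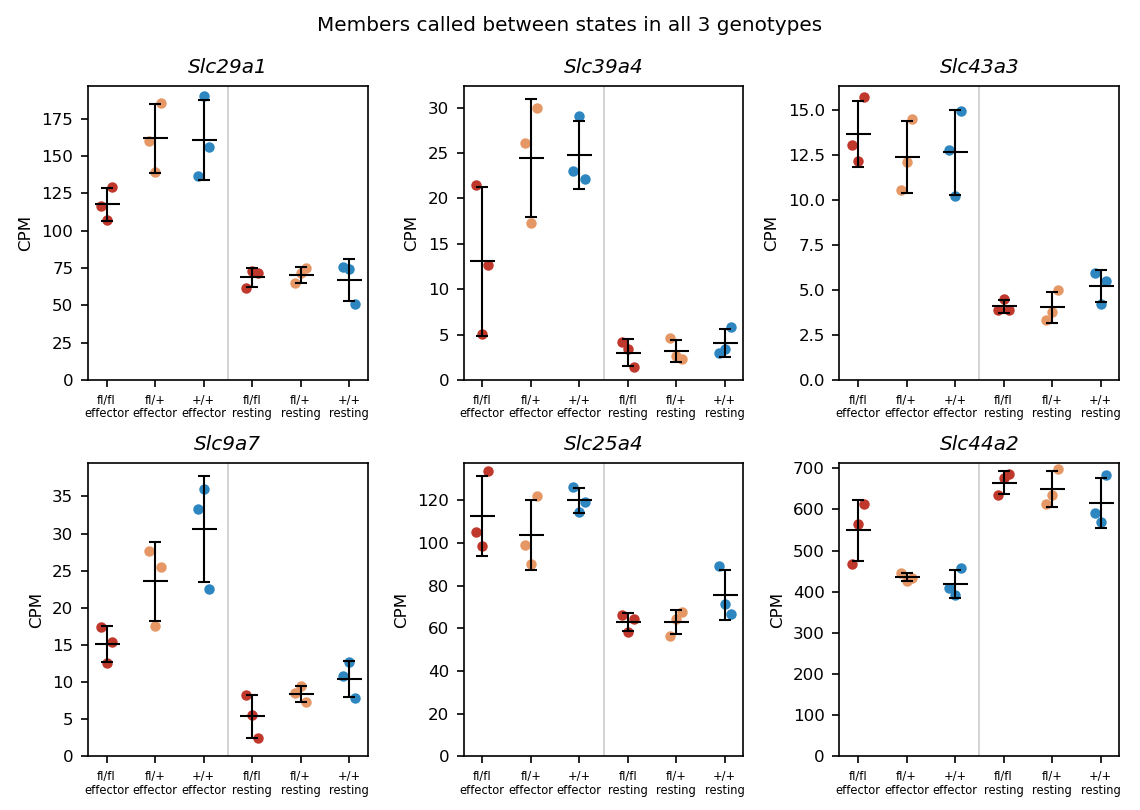
CPM of the 6 members called between states in all 3 genotypes, with 1 point for each library, a bar at the mean and an error bar of 1 SD (n = 3); effector groups are left of the grey line and resting groups right of it. Slc39a4 is higher in effector cells of each genotype, with a wide spread in fl/fl effector cells (5.07 to 21.4 CPM), and Slc44a2 is the only panel in which resting cells are higher.

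Promoter sequence is shown for 4 members that carry the state and genotype comparisons and have a single start in the RefSeq table: Slc9a7 (chrX:20291778-20292077, minus strand) and Slc25a4 (chr8:46211013-46211312, minus strand), which rose in all genotypes, and Slc4a8 (chr15:100761497-100761796, plus strand) and Slc41a1 (chr1:131827762-131828061, plus strand), which are described below with the ions and metals. Each is 250 bases before to 50 bases after the start, 5′ to 3′ on the strand of the gene, from RefSeq on GRCm38.p6, the patch release of the mm10 build. Capitals mark letters that match a searched motif on either strand: a GC box (GGGCGG), an E-box (CACGTG), an AP-1 site (TGANTCA) or the NF-kB consensus.
Slc9a7: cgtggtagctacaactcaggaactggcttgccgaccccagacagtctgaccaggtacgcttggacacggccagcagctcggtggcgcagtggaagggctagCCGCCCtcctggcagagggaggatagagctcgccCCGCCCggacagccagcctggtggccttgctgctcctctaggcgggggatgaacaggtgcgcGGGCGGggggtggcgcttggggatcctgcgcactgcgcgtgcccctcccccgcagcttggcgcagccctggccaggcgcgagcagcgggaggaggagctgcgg
Slc25a4: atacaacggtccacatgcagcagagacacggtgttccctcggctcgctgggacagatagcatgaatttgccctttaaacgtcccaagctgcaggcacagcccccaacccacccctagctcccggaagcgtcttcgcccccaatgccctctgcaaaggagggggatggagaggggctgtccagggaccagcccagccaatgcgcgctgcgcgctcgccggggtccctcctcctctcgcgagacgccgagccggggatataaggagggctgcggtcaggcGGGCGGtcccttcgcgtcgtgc
Slc4a8: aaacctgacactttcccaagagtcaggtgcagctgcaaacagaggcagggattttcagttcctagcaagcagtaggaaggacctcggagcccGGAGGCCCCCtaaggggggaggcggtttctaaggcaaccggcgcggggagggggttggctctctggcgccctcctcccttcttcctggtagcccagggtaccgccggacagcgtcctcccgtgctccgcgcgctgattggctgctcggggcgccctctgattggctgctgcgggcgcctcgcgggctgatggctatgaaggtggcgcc
Slc41a1: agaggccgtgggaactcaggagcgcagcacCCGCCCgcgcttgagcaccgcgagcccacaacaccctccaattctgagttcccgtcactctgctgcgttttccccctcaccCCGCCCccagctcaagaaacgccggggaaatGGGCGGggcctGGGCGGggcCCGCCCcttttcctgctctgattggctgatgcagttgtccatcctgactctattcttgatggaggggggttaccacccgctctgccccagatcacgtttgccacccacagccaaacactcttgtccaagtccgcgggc
The capitals are GC boxes in Slc9a7 (3), Slc25a4 (1) and Slc41a1 (5), and the NF-kB consensus in Slc4a8 (1). Over the 147 promoters of the 111 members found in the table, the NF-kB consensus was in 10.2%, against 10.4% of 10133 promoters of genes tested and 8.46% of all 32851. The AP-1 site was in 4.08% of member promoters, against 4.76% of those of genes tested and 7.81% of all, the E-box in 16.3%, against 10.3% and 7.15%, and the GC box in 74.1%, against 62.8% and 35.7%. A match says only that these letters are there.

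Among the 20 carriers of inorganic ions and pH, 1 rose and 0 fell in fl/fl, 4 rose and 0 fell in fl/+ and 7 rose and 0 fell in +/+ cells, with median changes of -0.02, 0.09 and 0.19 in the same order. Of all genes tested, 5.01%, 9.72% and 9.49% were called higher and 1.33%, 6.58% and 6.5% lower in the same order. The members that rose move bicarbonate, protons or sulfate. Slc4a8, a sodium-driven chloride/bicarbonate exchanger, was at 21, 13.2 and 15.7 CPM in the fl/fl libraries, 24.7, 17.3 and 30.4 CPM in the fl/+ libraries and 33.3, 34.4 and 29.3 CPM in the +/+ libraries in effector cells. Resting levels of Slc4a8 were 11.5, 11.4 and 4.15 CPM in fl/fl, 10.6, 9.45 and 7.28 CPM in fl/+ and 9.85, 11.9 and 10.6 CPM in +/+. Effector libraries were above resting libraries in every genotype, and the +/+ effector libraries were above the fl/fl ones. For Slc4a8 the log2 difference was 0.83 (SE 0.29, adjusted p = 0.105) in fl/fl, 1.27 (SE 0.28, adjusted p = 0.0033) in fl/+ and 1.49 (SE 0.28, adjusted p = 0.000901) in +/+ cells, and the fl/+ and +/+ calls held when any 1 of the 6 libraries of their contrast was left out. Slc26a2, a sulfate carrier, had 57.4, 30.4 and 37.6 CPM in the fl/fl libraries, 77, 51.4 and 72.1 CPM in the fl/+ libraries and 86.4, 60.3 and 53.9 CPM in the +/+ libraries in effector cells. In resting cells Slc26a2 had 30.4, 25.9 and 24.4 CPM in fl/fl, 34.7, 38.2 and 34.1 CPM in fl/+ and 41.6, 43 and 37.6 CPM in +/+. The fl/fl resting libraries of Slc26a2 were all below those of the other genotypes. For Slc26a2 the log2 difference was 0.57 (SE 0.21, adjusted p = 0.113) in fl/fl, 0.81 (SE 0.20, adjusted p = 0.00642) in fl/+ and 0.63 (SE 0.20, adjusted p = 0.0334) in +/+ cells. The +/+ call of Slc26a2 was lost without +/+ effector library 1 or +/+ resting library 1, 2 or 3 (adjusted p 0.0506 to 0.238).

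The bicarbonate cotransporter Slc4a7 had log2 differences of 0.25 (adjusted p = 0.587) in fl/fl, 0.72 (adjusted p = 0.0216) in fl/+ and 0.67 (adjusted p = 0.0326) in +/+ cells. It averaged 63.4 ± 8.52 CPM in effector and 37.1 ± 7.12 CPM in resting +/+ cells (SD, n = 3). Its calls were lost without +/+ effector library 1 or 3 or +/+ resting library 2 or 3 (adjusted p 0.0513 to 0.138) in +/+ and without fl/+ effector library 3 or fl/+ resting library 1 (adjusted p 0.0547 to 0.145) in fl/+. The endosomal sodium/proton exchanger Slc9a9 had log2 differences of 0.42 (adjusted p = 0.229) in fl/fl, 0.45 (adjusted p = 0.113) in fl/+ and 0.76 (adjusted p = 0.00796) in +/+ cells, with 127 ± 29.8 CPM in effector and 70 ± 10.5 CPM in resting +/+ cells. The +/+ call on Slc9a9 was lost without +/+ effector library 2 (adjusted p = 0.0537). With a batch within each genotype as a block, its fl/+ change was called (adjusted p = 0.0445). The anion exchanger Slc4a2, at 58.5 ± 4.57 CPM in effector and 39.3 ± 4.78 CPM in resting +/+ cells, had log2 differences of -0.04 (adjusted p = 0.895) in fl/fl, 0.03 (adjusted p = 0.903) in fl/+ and 0.47 (adjusted p = 0.0113) in +/+ cells. The call on Slc4a2 was lost without +/+ resting library 2 (adjusted p = 0.0508), and exons of Fastk overlap it on the other strand. The interaction of Slc4a2 had a p of 0.00715 before adjustment and 0.397 after it. The potassium/chloride cotransporter Slc12a7 was not called, with -0.32 (adjusted p = 0.068) in +/+. With the batch term Slc12a7 was called there (adjusted p = 0.049).

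Among the 20 metal carriers, 1 rose and 1 fell in fl/fl, 5 rose and 2 fell in fl/+ and 4 rose and 1 fell in +/+ cells, with median changes of 0.14, 0.01 and 0.26. All genes tested were called in 6.34%, 16.3% and 16% in the same order. Besides Slc39a4, the magnesium carrier Slc41a1 rose in fl/+ and +/+ cells. Slc41a1 had 63.7, 48 and 44 CPM in the fl/fl libraries, 93.5, 69.3 and 93.5 CPM in the fl/+ libraries and 111, 76.4 and 68 CPM in the +/+ libraries in effector cells. In resting cells Slc41a1 had 55.2, 43.9 and 35.1 CPM in fl/fl, 45.9, 38.9 and 49.6 CPM in fl/+ and 54.6, 45 and 54 CPM in +/+. The fl/fl effector libraries lay among the resting libraries or just above them, below every other effector library. For Slc41a1 the log2 difference was 0.16 (SE 0.18, adjusted p = 0.713) in fl/fl, 0.84 (SE 0.18, adjusted p = 0.00261) in fl/+ and 0.64 (SE 0.18, adjusted p = 0.0167) in +/+ cells. The +/+ call of Slc41a1 was lost without +/+ effector library 1 or +/+ resting library 2 (adjusted p 0.0633 to 0.162). Slc39a6, the zinc importer ZIP6, had log2 differences of 0.50 (adjusted p = 0.0932) in fl/fl, 0.54 (adjusted p = 0.0263) in fl/+ and 0.57 (adjusted p = 0.0195) in +/+ cells. Its +/+ call was lost without +/+ effector library 1 or 3 or +/+ resting library 3 (adjusted p 0.0701 to 0.123). Its fl/+ call was lost without fl/+ effector library 1 or 3 or fl/+ resting library 2 or 3 (adjusted p 0.0771 to 0.11). With a batch within each genotype as a block, its fl/fl change was called too (adjusted p = 0.0484). The heme carrier Slc48a1, which Hdac7 overlaps on the other strand, had log2 differences of 0.13 (adjusted p = 0.65) in fl/fl, 0.52 (adjusted p = 0.00767) in fl/+ and 0.39 (adjusted p = 0.0455) in +/+ cells. Its calls were lost without +/+ effector library 1, 2 or 3 or +/+ resting library 2 or 3 (adjusted p 0.0863 to 0.151) in +/+ and fl/+ resting library 1 (adjusted p = 0.0775) in fl/+.

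Of the metal carriers, Slc30a7 was called lower in fl/+ and +/+ cells and Slc39a7 in fl/fl and fl/+ cells. No other member of their families was called lower. Slc30a7, which loads zinc into the Golgi, was at 86.7, 134 and 106 CPM in fl/fl, 95, 101 and 81.6 CPM in fl/+ and 84.8, 81.5 and 98.1 CPM in +/+ effector cells. Resting levels of Slc30a7 were 149, 118 and 141 CPM in fl/fl, 145, 132 and 147 CPM in fl/+ and 106, 134 and 153 CPM in +/+. They overlapped the effector libraries in fl/fl, and lay above them in fl/+ and +/+. Slc30a7 had log2 differences of -0.41 (SE 0.16, adjusted p = 0.142) in fl/fl, -0.70 (SE 0.15, adjusted p = 0.00311) in fl/+ and -0.66 (SE 0.16, adjusted p = 0.00642) in +/+ cells. Its reads were in part divided between genes by the counting, with counts that are whole in none of the 18 libraries. Slc39a7, the zinc channel ZIP7 of the endoplasmic reticulum, had log2 differences of -0.36 (adjusted p = 0.0268) in fl/fl, -0.41 (adjusted p = 0.00497) in fl/+ and -0.27 (adjusted p = 0.0628) in +/+ cells, with 127 ± 5.57 CPM in effector and 155 ± 7.14 CPM in resting fl/fl cells. With the batch term Slc39a7 was also called in +/+ (adjusted p = 0.0454). The fl/fl call was lost without fl/fl effector library 1 or 3 or fl/fl resting library 1, 2 or 3 (adjusted p 0.0654 to 0.139). The iron carrier Slc11a2 was called in fl/+ and not in the other genotypes: 0.21 (adjusted p = 0.672) in fl/fl, 0.65 (adjusted p = 0.0495) in fl/+ and 0.45 (adjusted p = 0.194) in +/+ cells; that call was lost without fl/+ effector library 1 or 3 or fl/+ resting library 1, 2 or 3 (adjusted p 0.0597 to 0.25). The zinc importers Slc39a1 and Slc39a10 were not called, with 0.03 (adjusted p = 0.948) and 0.04 (adjusted p = 0.946) in +/+ cells.

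Among the 20 carriers of amino acids and peptides, 1 rose and 0 fell in fl/fl, 2 rose and 1 fell in fl/+ and 2 rose and 1 fell in +/+ cells, with median changes of -0.04, 0.06 and 0.02. All genes tested were called in 6.34%, 16.3% and 16% in the same order. Slc43a3 was the one called in fl/fl. It is in this class by its family number, although its human protein is known to carry purine nucleobases. Among the sodium-coupled neutral amino acid carriers of family 38, Slc38a2 fell and Slc38a1 rose in fl/+ cells. Slc38a2, which carries alanine and glutamine and is known to be induced when amino acids are short, had 57.4, 73.4 and 60.3 CPM in fl/fl, 69.8, 58.5 and 55.9 CPM in fl/+ and 71.4, 54.4 and 57.6 CPM in +/+ effector cells. Resting levels of Slc38a2 were 69.8, 83 and 71.1 CPM in fl/fl, 83.4, 83.5 and 67.3 CPM in fl/+ and 87.2, 92.5 and 83.8 CPM in +/+. The libraries of the states overlapped in fl/fl and fl/+ and not in +/+. Slc38a2 had log2 differences of -0.31 (SE 0.14, adjusted p = 0.22) in fl/fl, -0.45 (SE 0.14, adjusted p = 0.0285) in fl/+ and -0.61 (SE 0.14, adjusted p = 0.00443) in +/+ cells. The fl/+ call was lost without fl/+ effector library 2 or 3 or fl/+ resting library 1 or 2 (adjusted p 0.0836 to 0.134). Slc38a1, a close relative, had log2 differences of 0.36 (adjusted p = 0.0714) in fl/fl, 0.35 (adjusted p = 0.036) in fl/+ and 0.32 (adjusted p = 0.0618) in +/+ cells. With the batch term it was called in fl/fl (adjusted p = 0.0313) and in +/+ (adjusted p = 0.0248) too. Its fl/+ call was lost without fl/+ effector library 1 or 3 or fl/+ resting library 2 or 3 (adjusted p 0.0694 to 0.132). Slc38a10 rose in +/+ by 0.36 (adjusted p = 0.0414), a call lost without +/+ effector library 1, 2 or 3 or +/+ resting library 1, 2 or 3 (adjusted p 0.0676 to 0.126), and had 0.04 (adjusted p = 0.896) in fl/fl.

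Apart from Slc38a1 and Slc38a2, the listed amino acid carriers known from activated T cells were not called between states in any genotype. Slc1a5, the glutamine carrier ASCT2, averaged 262 ± 25.5 CPM in effector and 247 ± 8.48 CPM in resting fl/fl cells and 296 ± 6.34 CPM in effector and 233 ± 5.98 CPM in resting +/+ cells (SD, n = 3), with log2 differences of 0.0016 (adjusted p = 0.999) and 0.25 (adjusted p = 0.375). Every +/+ effector library of Slc1a5 (289.5 to 302.1 CPM) was above every +/+ resting library (227 to 239 CPM). Slc3a2, the heavy chain CD98, averaged 128 ± 28.3 CPM in effector and 129 ± 15.2 CPM in resting fl/fl cells and 163 ± 17 CPM in effector and 140.2 ± 5.26 CPM in resting +/+ cells, with -0.08 (adjusted p = 0.794) and 0.12 (adjusted p = 0.577). The arginine and lysine carrier Slc7a1 had -0.24 (adjusted p = 0.542) in fl/fl and -0.21 (adjusted p = 0.512) in +/+. The cystine carrier Slc7a11 had -0.09 (adjusted p = 0.891) and 0.03 (adjusted p = 0.968) in the same order, the light chain Slc7a6 0.13 (adjusted p = 0.671) and -0.01 (adjusted p = 0.971), the branched-chain amino acid carrier Slc43a2 0.29 (adjusted p = 0.351) and 0.22 (adjusted p = 0.408), and the lysosomal arginine sensor Slc38a9 -0.05 (adjusted p = 0.913) and -0.07 (adjusted p = 0.849). A p above the limit does not show that these levels are equal.

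Among the 17 carriers of sugars, monocarboxylates and nucleosides, 1 rose and 0 fell in fl/fl, 2 rose and 2 fell in fl/+ and 4 rose and 0 fell in +/+ cells, with median changes of 0.21, 0.17 and 0.38. All genes tested were called in 6.34%, 16.3% and 16% in the same order. Apart from Slc29a1, Slc45a4, of a putative sugar carrier family, rose in fl/+ and +/+ cells. Slc45a4 was at 14.5, 6.42 and 9.05 CPM in the fl/fl libraries, 17.9, 14.9 and 18.5 CPM in the fl/+ libraries and 26.4, 21.5 and 15.3 CPM in the +/+ libraries in effector cells. Resting levels of Slc45a4 were 5.97, 7.96 and 7.75 CPM in fl/fl, 10.2, 9.07 and 3.64 CPM in fl/+ and 8.62, 8.45 and 7.05 CPM in +/+. The 3 fl/fl effector libraries were below every +/+ effector library, and 2 of them were inside the resting range. For Slc45a4 the log2 difference was 0.42 (SE 0.33, adjusted p = 0.54) in fl/fl, 1.00 (SE 0.31, adjusted p = 0.0308) in fl/+ and 1.29 (SE 0.31, adjusted p = 0.00692) in +/+ cells. Its +/+ call was lost without +/+ effector library 1 (adjusted p = 0.0555) and its fl/+ call without fl/+ effector library 1 or 3 or fl/+ resting library 2 or 3 (adjusted p 0.0517 to 0.115). The intracellular hexose carrier Slc2a8 had log2 differences of 0.60 (adjusted p = 0.312) in fl/fl, 0.59 (adjusted p = 0.18) in fl/+ and 1.00 (adjusted p = 0.0243) in +/+ cells, with 15.5 ± 1.74 CPM in effector and 7.24 ± 1.96 CPM in resting +/+ cells. The call on Slc2a8 was lost without +/+ effector library 1 or 2 or +/+ resting library 2 (adjusted p 0.0571 to 0.0949). The myo-inositol carrier Slc5a3, whose exons overlap those of Mrps6, had log2 differences of 0.47 (adjusted p = 0.252) in fl/fl, 0.61 (adjusted p = 0.0634) in fl/+ and 0.67 (adjusted p = 0.0468) in +/+ cells. It was called in fl/+ too with the batch term (adjusted p = 0.0144). The +/+ call was lost without +/+ effector library 1 or 2 or +/+ resting library 1 or 3 (adjusted p 0.132 to 0.171). Of this class 2 members fell, both in fl/+: Slc16a5, of the monocarboxylate family, by 1.01 (adjusted p = 0.0272) and the pseudogene Slc2a4rg-ps by 0.39 (adjusted p = 0.0393). The Slc16a5 call was lost without fl/+ effector library 1, 2 or 3 or fl/+ resting library 1 or 2 (adjusted p 0.0629 to 0.094). The Slc2a4rg-ps call was lost without fl/+ effector library 1, 2 or 3 or fl/+ resting library 2 or 3 (adjusted p 0.0659 to 0.192). With a batch within each genotype as a block, Slc16a5 was called lower in +/+ too (adjusted p = 0.0414).

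The glucose and lactate carriers usually linked to T cell activation were not called. Slc2a1, the glucose carrier GLUT1, had 21.6, 27.1 and 21.7 CPM in the fl/fl libraries, 19.8, 20.2 and 25.2 CPM in the fl/+ libraries and 18.8, 16.7 and 18.3 CPM in the +/+ libraries in effector cells. Resting cells had 25.1, 22.5 and 27.7 CPM in fl/fl, 28.5, 17.8 and 33.1 CPM in fl/+ and 26.1, 21.5 and 22.7 CPM in +/+ for Slc2a1. In +/+ every effector library was below every resting library, but the change of -0.48 (SE 0.20, adjusted p = 0.12) did not pass the threshold, nor did -0.18 (SE 0.20, adjusted p = 0.675) in fl/fl. Slc2a3, the glucose carrier GLUT3, averaged 67.2 ± 10.5 CPM in effector and 80.2 ± 1.97 CPM in resting fl/fl cells and 71 ± 12.2 CPM in effector and 70.1 ± 17.9 CPM in resting +/+ cells, with -0.33 (adjusted p = 0.276) and -0.06 (adjusted p = 0.848). The lactate carriers Slc16a1 and Slc16a3 had 0.55 (adjusted p = 0.355) and 0.25 (adjusted p = 0.731) in fl/fl, and 0.43 (adjusted p = 0.395) and 0.89 (adjusted p = 0.0637) in +/+. With a batch within each genotype as a block, the +/+ change of Slc16a3 had an adjusted p of 0.0482. Slc16a6 had 0.44 (adjusted p = 0.228), the sodium-coupled nucleoside carrier Slc28a2 -0.06 (adjusted p = 0.805) and Slc50a1 -0.21 (adjusted p = 0.133) in +/+.

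Among the 17 carriers of vitamins, lipids, organic ions and vesicular cargo, 1 rose and 1 fell in fl/fl, 1 rose and 2 fell in fl/+ and 3 rose and 2 fell in +/+ cells, with median changes of -0.0014, 0.11 and 0.26. All genes tested were called in 6.34%, 16.3% and 16% in the same order. Slc19a1, the reduced folate carrier, was called in fl/fl and not in the other genotypes. It had 45.3, 44 and 65.7 CPM in the fl/fl libraries, 52.8, 54.8 and 51.6 CPM in the fl/+ libraries and 42.3, 53.8 and 58.4 CPM in the +/+ libraries in effector cells. In resting cells Slc19a1 had 21.8, 29.8 and 27.7 CPM in fl/fl, 32.6, 33.6 and 42.8 CPM in fl/+ and 34.2, 42.7 and 32.1 CPM in +/+. Effector levels were about alike, and the fl/fl resting libraries were all below the +/+ resting ones. For Slc19a1 the log2 difference was 0.86 (SE 0.19, adjusted p = 0.0102) in fl/fl, 0.46 (SE 0.18, adjusted p = 0.0916) in fl/+ and 0.40 (SE 0.19, adjusted p = 0.17) in +/+ cells. The interaction was 0.46 (SE 0.27, adjusted p = 0.646). When batch was a term, it was called in fl/+ as well (adjusted p = 0.0445). Slc27a1, which takes up long-chain fatty acids, had 12.2, 7.47 and 9.69 CPM in fl/fl and 21.8, 17.5 and 17.1 CPM in +/+ effector cells, and 11.3, 5.62 and 9.04 CPM in fl/fl and 5.78, 8.65 and 5.51 CPM in +/+ resting cells. Effector and resting libraries overlapped in fl/fl, and did not in +/+. For Slc27a1 the log2 difference was 0.10 (SE 0.32, adjusted p = 0.913) in fl/fl, 0.71 (SE 0.30, adjusted p = 0.116) in fl/+ and 1.43 (SE 0.32, adjusted p = 0.00407) in +/+ cells. With a batch within each genotype as a block, the fl/+ change of Slc27a1 was called (adjusted p = 0.0468). Without the block, its interaction of -1.33 (SE 0.46) had a p of 0.00888 before and 0.422 after adjustment.

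Slc17a9, the vesicular nucleotide transporter that packs ATP into secretory vesicles, fell in fl/+ and +/+ cells. It had 30.4, 65.2 and 63.3 CPM in fl/fl, 22.9, 45.9 and 25.7 CPM in fl/+ and 25.1, 22.1 and 40.1 CPM in +/+ effector cells. Resting levels of Slc17a9 were 52.5, 65.7 and 73.6 CPM in fl/fl, 70.3, 70.3 and 76.4 CPM in fl/+ and 62.5, 53 and 61.1 CPM in +/+. In fl/+ and +/+ they lay above every effector library, and in fl/fl they overlapped them. For Slc17a9 the log2 difference was -0.39 (SE 0.28, adjusted p = 0.486) in fl/fl, -1.30 (SE 0.28, adjusted p = 0.00261) in fl/+ and -1.11 (SE 0.29, adjusted p = 0.0115) in +/+ cells. Its +/+ call was lost without +/+ effector library 1 or 2 (adjusted p 0.0581 to 0.0708). Slc22a15, an organic cation carrier, had log2 differences of 1.30 (adjusted p = 0.0884) in fl/fl, 2.00 (adjusted p = 0.00308) in fl/+ and 1.65 (adjusted p = 0.0139) in +/+ cells, with 10.8 ± 4.18 CPM in effector and 3.52 ± 0.907 CPM in resting +/+ cells. With the batch term it was called in fl/fl too (adjusted p = 0.0319). Its +/+ call was lost without +/+ effector library 1 or +/+ resting library 1 (adjusted p 0.0783 to 0.0951). The riboflavin carrier Slc52a3 rose in +/+, with 13.9 ± 6.1 CPM in effector and 4.93 ± 1.5 CPM in resting +/+ cells, by 1.32 (SE 0.43, adjusted p = 0.0413), against 0.09 (adjusted p = 0.944) in fl/fl. The call on Slc52a3 was lost without +/+ effector library 2 or +/+ resting library 2 or 3 (adjusted p 0.108 to 0.207).

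Among the 32 mitochondrial carriers, 1 rose and 0 fell in fl/fl, 1 rose and 1 fell in fl/+ and 2 rose and 1 fell in +/+ cells, with median changes of 0.11, 0.01 and 0.01. Its summed level was 1440 ± 117 FPKM in fl/fl, 1331 ± 61.5 in fl/+ and 1318 ± 87.1 in +/+ effector cells, and 1204 ± 84.6, 1190 ± 95.5 and 1238 ± 64.9 FPKM in resting cells in the same order. Of all genes tested, 6.34%, 16.3% and 16% were called between states in fl/fl, fl/+ and +/+ cells. Besides Slc25a4, Slc25a39, which brings glutathione into mitochondria, rose in +/+. For Slc25a39 the log2 difference was 0.44 (adjusted p = 0.111) in fl/fl, 0.41 (adjusted p = 0.0751) in fl/+ and 0.60 (adjusted p = 0.0119) in +/+ cells. When batch was a term, it was called in fl/fl (adjusted p = 0.0457) and fl/+ (adjusted p = 0.0316) as well. The +/+ call was lost without +/+ resting library 1 (adjusted p = 0.0691). Slc25a23, a calcium-regulated ATP-Mg/phosphate carrier, had 4.9, 8.11 and 3.02 CPM in fl/fl and 2.91, 2.69 and 2.67 CPM in +/+ effector cells, and 9.85, 7.96 and 8.58 CPM in fl/fl and 6.89, 5.76 and 8.61 CPM in +/+ resting cells. The effector libraries lay below the resting libraries in +/+, and overlapped them in fl/fl. For Slc25a23 the log2 difference was -0.76 (SE 0.31, adjusted p = 0.182) in fl/fl, -0.47 (SE 0.32, adjusted p = 0.365) in fl/+ and -1.43 (SE 0.35, adjusted p = 0.00761) in +/+ cells. Its relative Slc25a25 fell in fl/+ by 0.57 (adjusted p = 0.0202), a call lost without fl/+ effector library 1 or 3 or fl/+ resting library 1 (adjusted p 0.0661 to 0.129), and Naif1 overlaps it on the other strand.

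Other mitochondrial carriers of central metabolism were not called. The phosphate carrier Slc25a3 averaged 552 ± 42.5 CPM in effector and 482 ± 40 CPM in resting fl/fl cells and 489.7 ± 46.8 CPM in effector and 476 ± 29.8 CPM in resting +/+ cells, with 0.11 (adjusted p = 0.577) and -0.05 (adjusted p = 0.767). The citrate carrier Slc25a1 had 0.31 (adjusted p = 0.377) in fl/fl, 0.50 (adjusted p = 0.0648) in fl/+ and 0.44 (adjusted p = 0.105) in +/+ cells, and with the batch term it was called in fl/+ (adjusted p = 0.0495). The dicarboxylate carrier Slc25a10 had 0.72 (adjusted p = 0.18), the oxoglutarate carrier Slc25a11 0.15 (adjusted p = 0.508) and the acylcarnitine carrier Slc25a20 0.13 (adjusted p = 0.787) in +/+ cells. The iron importer Slc25a37 and the glycine carrier Slc25a38 had -0.28 (adjusted p = 0.277) and -0.11 (adjusted p = 0.796).

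Among the 22 nucleotide sugar and other endomembrane carriers, 0 rose and 0 fell in fl/fl and 1 rose and 2 fell in fl/+ cells. In +/+ cells 2 rose and 0 fell. Median changes were -0.03, -0.10 and -0.01 in fl/fl, fl/+ and +/+ cells. All genes tested were called in 6.34%, 16.3% and 16% in the same order. Slc35b2, which carries the sulfate donor PAPS into the Golgi, had log2 differences of 0.27 (adjusted p = 0.333) in fl/fl, 0.56 (adjusted p = 0.00809) in fl/+ and 0.49 (adjusted p = 0.0218) in +/+ cells, with 47.7 ± 6.23 CPM in effector and 31.6 ± 2.4 CPM in resting +/+ cells. Its +/+ call was lost without +/+ effector library 2 or +/+ resting library 1 or 3 (adjusted p 0.0657 to 0.115). The UDP-N-acetylglucosamine carrier Slc35a3 had log2 differences of -0.01 (adjusted p = 0.986) in fl/fl, 0.63 (adjusted p = 0.054) in fl/+ and 0.73 (adjusted p = 0.0342) in +/+ cells. The +/+ call was lost without +/+ effector library 2 or 3 or +/+ resting library 1 or 2 (adjusted p 0.07 to 0.149), and with the batch term the fl/+ change was called (adjusted p = 0.0441). Slc35d1, which carries UDP-glucuronic acid and UDP-N-acetylgalactosamine, fell in fl/+, with 13.2 ± 2.88 CPM in effector and 22.7 ± 3.29 CPM in resting fl/+ cells: its log2 difference was -0.15 (adjusted p = 0.738) in fl/fl, -0.88 (adjusted p = 0.00305) in fl/+ and -0.58 (adjusted p = 0.0569) in +/+ cells. The GDP-fucose carrier Slc35c1 fell in fl/+ by 0.40 (adjusted p = 0.0471). That call was lost without fl/+ effector library 3 or fl/+ resting library 2 or 3 (adjusted p 0.125 to 0.253). With a batch within each genotype as a block, Slc35d1 and Slc35c1 were called lower in +/+ too (adjusted p = 0.0481 and 0.0483). The CMP-sialic acid carrier Slc35a1, the UDP-galactose carrier Slc35a2 and the glucose-6-phosphate carrier Slc37a4 were not called, with 0.24 (adjusted p = 0.317), 0.18 (adjusted p = 0.748) and 0.43 (adjusted p = 0.219) in +/+.

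**Figure D3:**
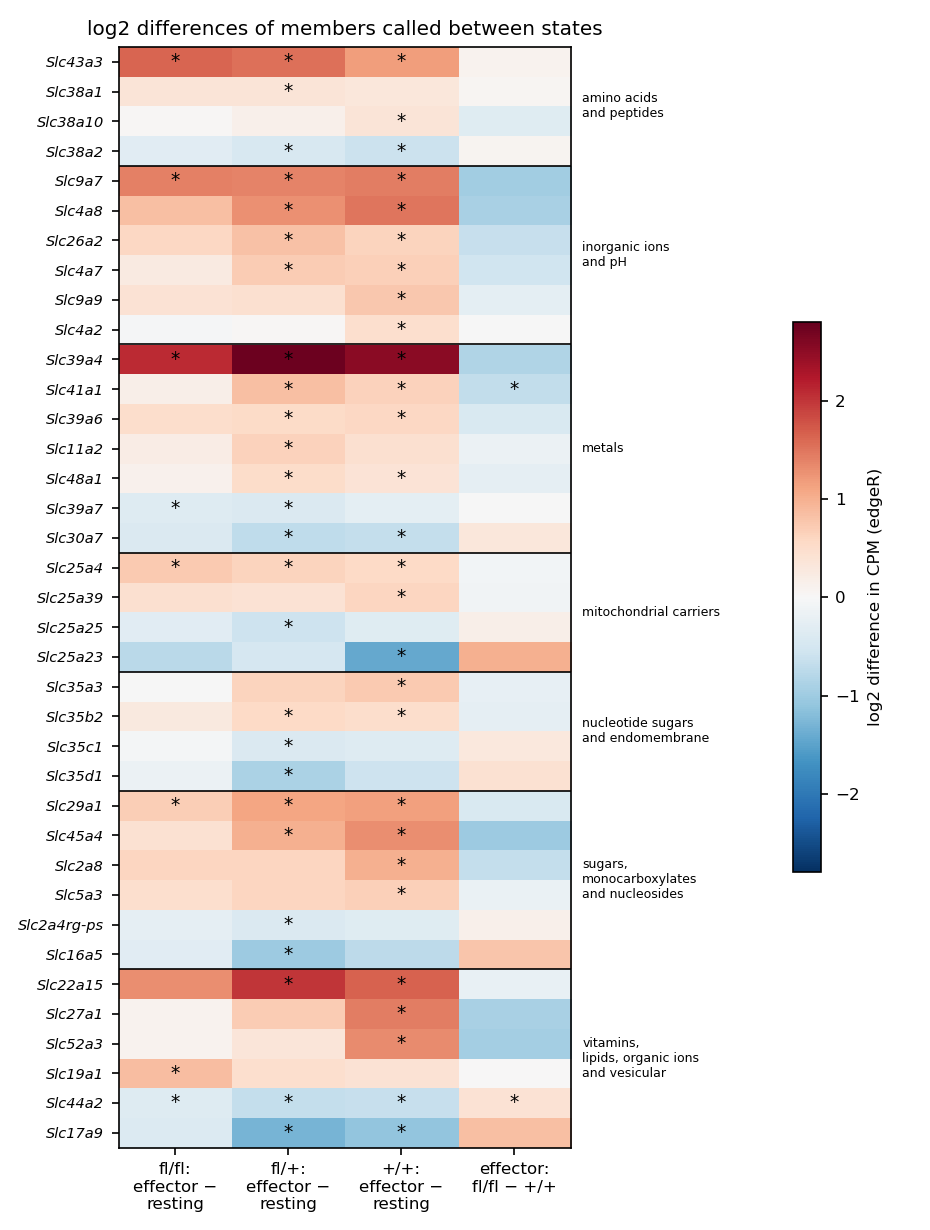
Colour shows the log2 difference of 37 of the 38 members called between states in at least 1 genotype, with effector minus resting in fl/fl, fl/+ and +/+ cells and, in the last column, fl/fl minus +/+ in effector cells; an asterisk marks an adjusted p under 0.05 and lines separate the substrate classes. Red is higher in effector cells or in fl/fl, and blue is lower. There are 8, 26 and 28 asterisks in the fl/fl, fl/+ and +/+ columns and 2 in the last, since the other member called there, Slc20a1, was not called between states.

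Side by side, the state changes of fl/fl and +/+ cells come from separate libraries. Of the 148 members, 77% had the same sign in both, against 69.2% of all genes tested. The change was smaller in size in fl/fl than in +/+ for 73% of members, against 59.8% of all genes. Pearson's correlation of the changes across the 148 members was 0.764; members are not independent, and in each fit the libraries of a group are shared by all genes. The members called in both were Slc29a1, Slc39a4, Slc43a3, Slc9a7, Slc25a4 and Slc44a2.

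**Figure D4:**
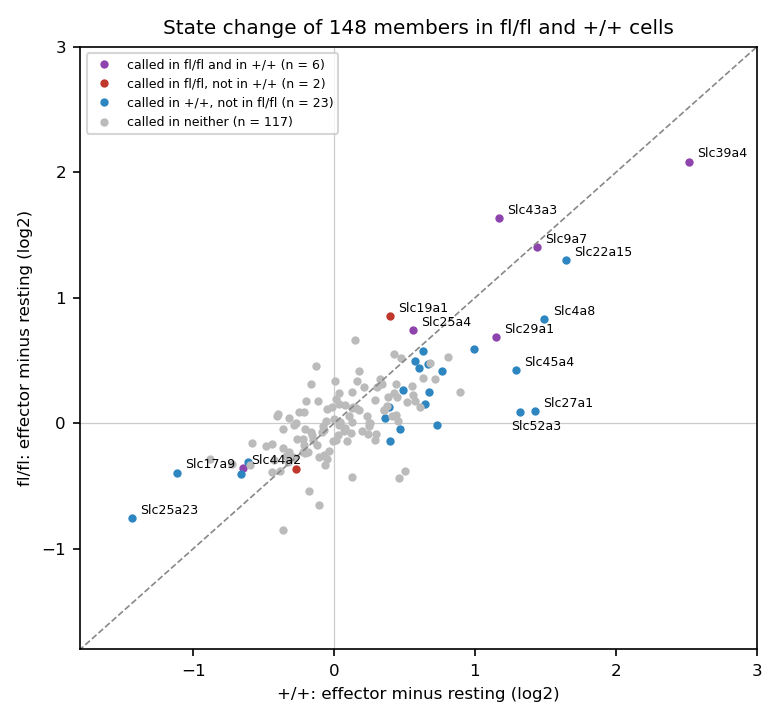
Each point is 1 of the 148 members, placed by its log2 change between states in +/+ cells (horizontal) and in fl/fl cells (vertical), and the dashed line marks equal changes. Of the members, 6 were called in both genotypes, 2 in fl/fl and not +/+, 23 in +/+ and not fl/fl, and 117 in neither. 108 lie closer to 0 in fl/fl than in +/+.

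Some members passed the threshold between states with a batch within each genotype as a block and not without it, and are given with the log2 difference of that fit. In fl/fl these included the zinc importer Slc39a6, at 0.51 (adjusted p = 0.0484, against 0.0932 without the block), and Slc35f2, at 0.67 (adjusted p = 0.0485, against 0.123 without the block). In fl/+ the fatty acid carrier Slc27a1 had 0.75 (adjusted p = 0.0468, against 0.116 without the block) and the endosomal exchanger Slc9a9 0.45 (adjusted p = 0.0445, against 0.113 without the block). The sodium/proton exchanger Slc9a8 had -0.45 (adjusted p = 0.0241, against 0.0675 without the block) and the vitamin C carrier Slc23a2 -0.34 (adjusted p = 0.0469, against 0.0764 without the block) in fl/+. In +/+ the nucleotide sugar carriers Slc35d1 and Slc35c1 had -0.60 (adjusted p = 0.0481, against 0.0569 without the block) and -0.36 (adjusted p = 0.0483, against 0.0786 without the block), and Slc16a5 had -0.75 (adjusted p = 0.0414, against 0.138 without the block). The potassium/chloride cotransporter Slc12a7 had -0.33 (adjusted p = 0.0138, against 0.068 without the block) in +/+. Mitochondrial carriers that passed in +/+ with this block were Slc25a24, which carries ATP-Mg and phosphate, at 0.68 (adjusted p = 0.0396, against 0.0608 without the block), the glutamate carrier Slc25a22 at -0.42 (adjusted p = 0.0434, against 0.178 without the block), and Slc25a29, which carries basic amino acids, at -0.91 (adjusted p = 0.0211, against 0.0592 without the block). Slc24a6, the mitochondrial sodium/calcium exchanger, had 0.81 (adjusted p = 0.0319, against 0.062 without the block) in +/+, and 0.0313 was its adjusted p with the batch term. The folate carrier Slc25a32 passed with the batch term in +/+ (adjusted p = 0.0423).

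The members called between states in fl/+ can be read in the fl/fl and +/+ libraries, which that call did not use to form its contrast. The 16 that rose in fl/+ had median changes between states of 0.54 in fl/fl and 0.66 in +/+. In effector cells 14 of these 16 were lower in fl/fl than in +/+, with a median of -0.43. Over all 1033 genes that rose in fl/+, 75% were lower, with a median of -0.39. In resting cells 11 of the 16 were lower in fl/fl, with a median of -0.18, against 59% and -0.08 over the 1033 genes. The 10 members that fell in fl/+ had -0.32 in fl/fl and -0.60 in +/+. In effector cells 9 of these 10 were higher in fl/fl than in +/+, with a median of 0.31, against 87.6% and 0.24 over the 699 genes that fell.

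The comparison of genotypes asks how the floxed alleles bear on each state. Between fl/fl and +/+ effector cells 3 members were called: Slc44a2 and Slc20a1 were higher and Slc41a1 was lower in fl/fl. That is 2.03% of members, where 2.81% of all genes tested were called, and the median difference was -0.05 over members and 0.01 over all genes. Libraries did not overlap for 29 members, against 20.2% of all genes. At an unadjusted p under 0.05 there were 30 members, or 20.3%, against 17.3% of all genes. With the batch term 8 of 148 members were called, where 5.19% of all genes were, the 3 above with Slc25a5 higher and Slc9a7, Slc26a2, Slc45a4 and Slc4a8 lower in fl/fl. With the size factors of DESeq2 in edgeR 1 was higher and 1 lower, where 2.74% of all genes were called. DESeq2 itself called 1 higher and 4 lower, 5 in all, where it called 4.28% of all genes. Of these 5, Slc44a2 and Slc41a1 were also called by edgeR, and Slc9a7, Slc45a4 and Slc4a8 were not.

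All 3 calls lie close to the threshold, and the count moved with single libraries, including ones outside the contrast that enter the shared spread and the adjustment. It was 10 without fl/fl effector library 1 and 7 without +/+ effector library 3. No member was called without fl/fl effector library 2 or 3, fl/+ effector library 1 or 3, +/+ effector library 1 or 2, fl/+ resting library 1 or 2 or +/+ resting library 2. With fl/+ effector library 2, fl/fl resting library 2 or fl/+ resting library 3 left out, 1 was called. The share of all genes called in these fits was not counted, so the moves may not be particular to the members.

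Slc44a2, with the effector libraries given above, averaged 549 ± 73.2 CPM in fl/fl and 419 ± 34.4 CPM in +/+ effector cells (SD, n = 3), a difference of 0.41 (SE 0.11, adjusted p = 0.0423). No fl/fl effector library was below a +/+ effector library, and the fl/fl mean lay between the +/+ effector and the resting levels. Slc44a2 was not called without fl/fl effector library 2 or 3 or +/+ effector library 1 or 2 (adjusted p 0.186 to 0.198). Against fl/+ effector cells the difference was 0.35 (adjusted p = 0.134), and it was called with the batch term (adjusted p = 0.0417).

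Slc20a1 (chr2:129198764-129211616, plus strand), the sodium/phosphate cotransporter PiT1, had 102, 86.2 and 85.6 CPM in the fl/fl libraries, 80.2, 79.5 and 83.1 CPM in the fl/+ libraries and 76.8, 58.6 and 76.8 CPM in the +/+ libraries in effector cells. In resting cells Slc20a1 had 94, 83.7 and 84.7 CPM in fl/fl, 79.2, 79.7 and 76 CPM in fl/+ and 82.2, 77.2 and 84.1 CPM in +/+. All fl/fl effector libraries were above all +/+ effector libraries, and the range of the groups was narrow. Slc20a1 differed by 0.39 (SE 0.10, adjusted p = 0.0485) between fl/fl and +/+ effector cells, against 0.11 (adjusted p = 0.88) in resting cells. The call on Slc20a1 was lost without fl/fl effector library 1, 2 or 3 or +/+ effector library 1 or 2 (adjusted p 0.0952 to 0.217). Transcripts of 9830144P21Rik and Gm4430 overlap Slc20a1 on the other strand.

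Slc41a1 (chr1:131827493-131848865, plus strand), the magnesium carrier whose libraries are given above, averaged 51.9 ± 10.4 CPM in fl/fl and 85 ± 22.7 CPM in +/+ effector cells, and every fl/fl effector library was below every +/+ effector library. The difference of Slc41a1 was -0.68 (SE 0.18, adjusted p = 0.045), against -0.20 (adjusted p = 0.886) in resting cells. It was not called without fl/fl effector library 2 or 3 or +/+ effector library 1 or 2 (adjusted p 0.0958 to 0.298). Against fl/+ effector cells Slc41a1 had -0.69 (adjusted p = 0.0756), and it was called with the batch term (adjusted p = 0.0177) and by DESeq2.

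Some members were called by edgeR between fl/fl and +/+ effector cells with the batch term and not in the reported fit. Of these, Slc9a7, Slc45a4 and Slc4a8 were also called by DESeq2 without that term. Their differences in the reported fit were as follows. Slc9a7 averaged 15.1 ± 2.46 CPM in fl/fl and 30.6 ± 7.15 CPM in +/+ effector cells, a difference of -0.98 (SE 0.28, adjusted p = 0.0573), with an adjusted p of 0.0297 with the batch term. Slc4a8 averaged 16.6 ± 4 CPM in fl/fl and 32.4 ± 2.7 CPM in +/+ effector cells, with -0.92 (SE 0.27, adjusted p = 0.0662) and 0.0475 with the term. Slc45a4 averaged 9.99 ± 4.11 CPM in fl/fl and 21.1 ± 5.58 CPM in +/+ effector cells, with -1.02 (SE 0.31, adjusted p = 0.0723) and 0.0444. Slc26a2 averaged 41.8 ± 13.9 CPM in fl/fl and 66.8 ± 17.2 CPM in +/+ effector cells, with -0.65 (SE 0.20, adjusted p = 0.0761) and 0.0283, although its groups overlapped. Slc25a5 averaged 565 ± 71.5 CPM in fl/fl and 462 ± 33.7 CPM in +/+ effector cells, with 0.31 (SE 0.11, adjusted p = 0.124) and 0.0499. Its groups overlapped too, with fl/fl effector library 1 at 487 CPM and +/+ effector library 3 at 497 CPM. Slc29a1, with -0.43 (SE 0.16, adjusted p = 0.148), was called in neither fit, although no fl/fl effector library reached a +/+ one.

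**Figure D5:**
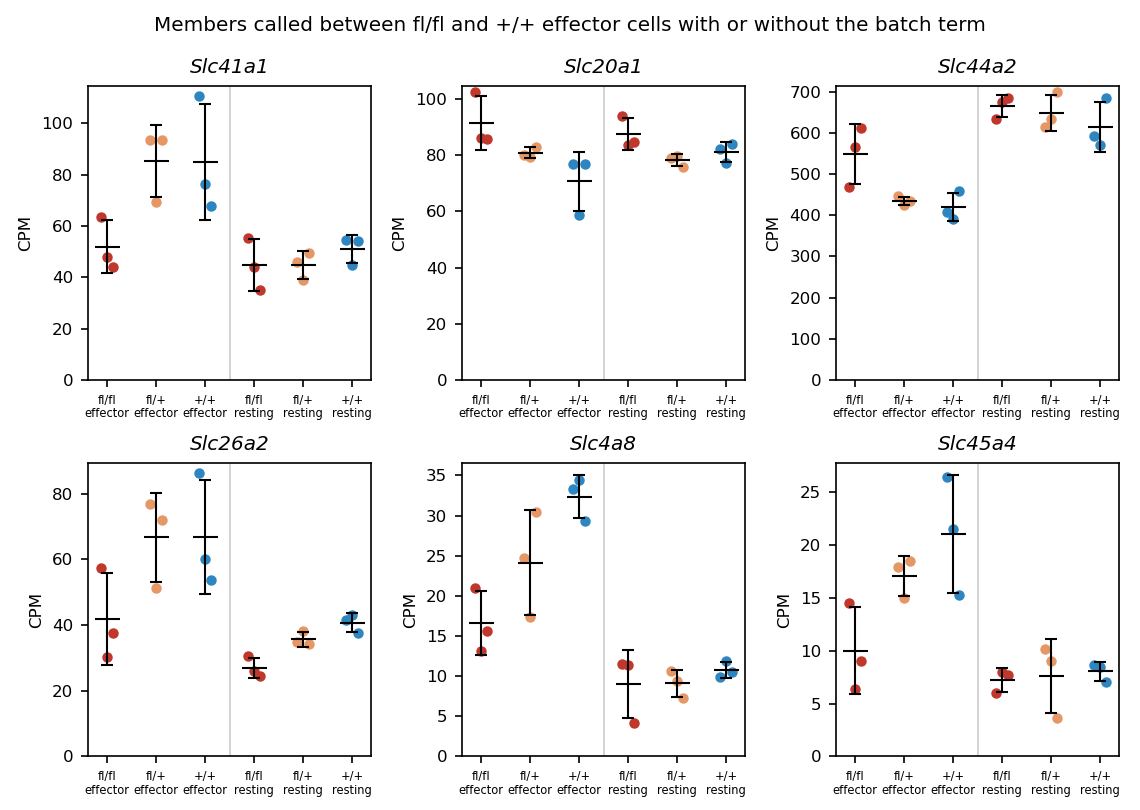
CPM of 6 of the 8 members called by edgeR between fl/fl and +/+ effector cells, Slc41a1, Slc20a1 and Slc44a2 in the fit without a batch term and Slc26a2, Slc4a8 and Slc45a4 with it. Each point is a library, with a bar at the mean and an error bar of 1 SD (n = 3), effector groups left of the grey line and resting groups right of it. The fl/fl effector libraries of Slc41a1 (44 to 63.7 CPM) lie below those of +/+ (68 to 111 CPM), and those of Slc20a1 and Slc44a2 lie above.

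In resting cells no member was called between fl/fl and +/+ by edgeR, where 0.696% of all genes were, and 10 members, or 6.76%, had an unadjusted p under 0.05, against 8.21% of all genes. DESeq2 called no member. Libraries did not overlap for 16 members, against 11.1% of all genes. Slc4a2, at 55.6 ± 5.67 CPM in fl/fl and 39.3 ± 4.78 CPM in +/+ resting cells, had the lowest p of the members, with 0.51 (SE 0.12, adjusted p = 0.0587), and was called with the batch term (adjusted p = 0.0344), where 1.68% of all genes were. The edgeR count was 1 when +/+ resting library 3 was left out. Between fl/+ and +/+ no member was called in effector cells, where 0.00941% of all genes were called, or in resting cells, where 0.0847% were. At an unadjusted p under 0.05 there were 6 members (4.05%, against 5.47% of all genes) in effector cells and 5 (3.38%, against 6.29%) in resting cells, and DESeq2 called none in either state. The resting count became 1 without +/+ resting library 3. Between fl/fl and fl/+ no member was called by edgeR in effector cells or in resting cells, where 0.677% and 0.0282% of all genes were called. At an unadjusted p under 0.05 there were 18 members (12.2%, against 11.8% of all genes) in effector cells and 5 (3.38%, against 4.83%) in resting cells. DESeq2 called 1 member, Slc41a1, in effector cells (1.67% of all genes) and none in resting cells. With the batch term 3 were called in effector cells (1.7% of all genes), Slc26a2, Slc44a2 and Slc41a1. The edgeR count there was 6 without fl/fl effector library 1 and 2 without fl/+ effector library 2. The share of all genes called with a library left out was not counted.

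Markers of the 2 states differed in level between the genotypes in the effector libraries, which was not tested. The 4 effector Treg markers (Klrg1, Icos, Prdm1 and Maf, all with counts) summed to 290 CPM (162 to 494) in fl/fl and 702 CPM (523 to 832) in +/+ effector cells, and to 82.3 CPM (50.4 to 132) and 84 CPM (62.3 to 100.4) in resting cells. The 3 resting T cell markers (Ccr7, Lef1 and Satb1, all with counts) summed to 1261 CPM (1028 to 1457) in fl/fl and 719 CPM (572 to 939.9) in +/+ effector cells, and to 1553 CPM (1533 to 1564) in fl/fl and 1469 CPM (1322 to 1595) in +/+ resting cells. The part of these shifts in the members' differences was not tested. Markers of other cells were low: 5 of 6 listed myeloid genes were in the table and summed to 77.6 CPM (75.4 to 79.0) in fl/fl and 101 CPM (96.2 to 105) in +/+ effector cells, and 5 of 5 CD8 or NK genes to 30 CPM (19.5 to 49.9) and 20.2 CPM (17.5 to 22). Most of the myeloid sum was Cst3, at 71.0 to 73.0 CPM in fl/fl and 86.3 to 99.5 CPM in +/+ effector libraries. The highest CD8 or NK sum was that of fl/fl effector library 1. Klrb1c was at 23 CPM in it, against 0.676 to 4.99 CPM in the other effector libraries. Per group the 6 B cell genes summed to means of 14.5 to 34 CPM, the 4 dendritic genes 2.28 to 5.39 CPM, the 3 listed plasma cell genes at most 1.43 CPM with Tnfrsf17 at 0 in every library, and the 5 listed red cell genes at most 0.785 CPM with Hba-a2 at 0. Their part in the members' differences was not tested either.

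On the first axis of the members alone (42.7% of their variance), the fl/fl effector libraries were at 3.02, -1.13 and 1.06, against 1.37 to 4.75 for the other effector libraries. All resting libraries were at -1.92 or lower. Effector library 2 of fl/fl, the closest to the resting libraries on this axis, had the lowest Slc39a4 (5.07 CPM), Slc26a2 (30.4 CPM) and Slc45a4 (6.42 CPM) of the effector libraries. These 3 members were picked after their values were seen. They are among the members from which the axis is computed, so their values are not separate from it.

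A list of 38 genes that work with or control solute carriers was read beside them: chaperones, pump subunits, nutrient sensors and regulators. Of these 36 were in the table and 33 were tested. In fl/fl cells 1 rose and 2 fell between states, in fl/+ 3 rose and 4 fell, and in +/+ 3 rose and 5 fell. All genes tested were called in 6.34%, 16.3% and 16% in the same order. The beta subunits of the sodium/potassium pump fell: Atp1b1 averaged 37 CPM in effector and 71.8 CPM in resting fl/fl cells, 16.6 CPM in effector and 59.4 CPM in resting fl/+ cells and 14.4 CPM in effector and 48 CPM in resting +/+ cells. For Atp1b1 the log2 difference was -1.06 (SE 0.19, adjusted p = 0.00247) in fl/fl, -1.93 (SE 0.20, adjusted p = 1.00e-05) in fl/+ and -1.88 (SE 0.22, adjusted p = 1.55e-05) in +/+. Atp1b3 had -0.64 (SE 0.17, adjusted p = 0.029), -1.06 (SE 0.17, adjusted p = 0.00027) and -1.17 (SE 0.17, adjusted p = 0.000113) in the same order. Between fl/fl and +/+ effector cells both beta subunits were higher in fl/fl, Atp1b1 by 1.42 (SE 0.23, adjusted p = 0.00283) and Atp1b3 by 0.69 (SE 0.17, adjusted p = 0.037). No other gene of the list was called there, where 2.81% of all genes tested were.

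Hif1a, the hypoxia-inducible factor that induces Slc2a1 and lactate carriers in many cells, rose by 0.63 (SE 0.15, adjusted p = 0.0133) in fl/fl, 1.16 (SE 0.15, adjusted p = 3.68e-05) in fl/+ and 1.35 (SE 0.15, adjusted p = 1.18e-05) in +/+ cells. Myc, which drives amino acid carriers in activated T cells, had -0.08 (SE 0.17, adjusted p = 0.852) in fl/fl and fell by 0.64 (SE 0.17, adjusted p = 0.0132) in fl/+ and by 0.77 (SE 0.17, adjusted p = 0.00418) in +/+ cells. The ubiquitin ligase Nedd4l, which removes ion channels and carriers from the membrane, had -0.46 (SE 0.26, adjusted p = 0.355) in fl/fl, -0.80 (SE 0.25, adjusted p = 0.0314) in fl/+ and -0.99 (SE 0.27, adjusted p = 0.0152) in +/+. The transferrin receptor Tfrc had 0.55 (SE 0.18, adjusted p = 0.0803) in fl/fl, 0.53 (SE 0.18, adjusted p = 0.0431) in fl/+ and 0.03 (SE 0.18, adjusted p = 0.95) in +/+. The leucine sensor Sesn2 had 0.26 (SE 0.35, adjusted p = 0.762) in fl/fl, 0.64 (SE 0.35, adjusted p = 0.237) in fl/+ and 1.51 (SE 0.37, adjusted p = 0.00715) in +/+. Lamtor4 of the lysosomal Ragulator complex had 0.23 (SE 0.19, adjusted p = 0.577) in fl/fl, 0.89 (SE 0.19, adjusted p = 0.00294) in fl/+ and 0.66 (SE 0.19, adjusted p = 0.0233) in +/+. Lamtor2 of the same complex had -0.26 (SE 0.14, adjusted p = 0.332) in fl/fl, -0.29 (SE 0.14, adjusted p = 0.165) in fl/+ and -0.47 (SE 0.14, adjusted p = 0.0267) in +/+. The metallothionein genes Mt1 and Mt2 and the heme oxygenase Hmox1 were too low to test.

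Shared reads limit some of these values. In GENCODE M21, 147 members had a place, on 20 chromosomes. Of these, 38 overlap an exon of a gene on the opposite strand. Reads of such a pair cannot be told apart if the counting did not use strand. Expected counts, taken as whole within 1e-06, were not whole in any of the 18 libraries for 14 members, among them Slc3a2, Slc28a2, Slc30a7 and Slc7a11, which means that reads were divided between genes. Another 21 members had whole counts in every library.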

How the data were processed

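RNA of sorted Treg cells was sequenced in 18 libraries, 3 for each of 6 groups of genotype and state. The authors deposited expected counts per gene symbol. RSEM 1.2.8, STAR 2.6.0, bcl2fastq 2.17.1.14 and the build mm10 are listed in the submitters' processing notes. Of the counts, 29.4% of those above 0 are not whole. The authors also deposited FPKM values, which by definition divide an estimate by transcript length and depth, and these were used for levels between genes. Annotation, strand setting and trimming are not stated in the labels. CPM was computed here from the counts.

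Expected counts were rounded and tested with edgeR 4.0.16 (R 4.3.3), using TMM factors of 0.939 to 1.06, its filter on low counts by group, which left 10630 genes, a mean for each of the 6 groups, quasi-likelihood F tests and Benjamini-Hochberg adjustment over all genes tested. A call is an adjusted p under 0.05. The SE is the size of the log2 difference over the square root of F. The test was checked on simulated counts. Alternatives were DESeq2 1.42.0, its size factors in edgeR, limma 3.58.1 on log2(FPKM + 1) and log2(FPKM + 0.1), other filters, a fit on the compared groups alone, a fit without Rn45s, the batch number as a block, and each library left out.

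The labels call the replicate number a batch. Libraries of the same number and genotype deviated from their group means together in 9 of 9 pairs (mean r 0.207, range 0.141 to 0.345). Those of the same number and another genotype had a mean r of 0.0666 over 36 pairs. The reported fit did not use this pairing. Only the alternative fits with the batch number, or a batch within each genotype, as a block did. With the latter the calls between states were 13, 35 and 39 in fl/fl, fl/+ and +/+ cells, against 8, 26 and 29 as reported.

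Genes named are members called in a comparison, a list of known carriers, the 12 members with the highest FPKM, those at the edge of the rule and a list of partner genes. The members and all lists were chosen with earlier results of these data known. Promoters are from RefSeq and gene positions from GENCODE M21. Figures were drawn with matplotlib 3.10.9. Some genes, the floxed gene among them, are not reported here.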

Additional observations from a re-analysis of the deposited data

How the results depend on the processing

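No direction of a called member was reversed under any setting checked for its call, and 66 calls were followed. Of the fits with a library left out, only those without a library of the contrast itself were checked for single calls. Under DESeq2 63 of them held, under its size factors in edgeR 63, without Rn45s 65, with a limit of 5 CPM 62, without a filter 56, on the compared groups alone 54, on log2(FPKM + 1) 54 and on log2(FPKM + 0.1) 52. Called in every setting checked were 3 members between states in fl/fl (Slc19a1, Slc25a4 and Slc43a3), 14 in fl/+ and 10 in +/+, and 0 between fl/fl and +/+ effector cells.

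With the replicate block, which enters the batch number as a term, 66 of 66 calls held, and the counts between states were 11 in fl/fl, 31 in fl/+ and 35 in +/+; with the block within genotype they were 13, 35 and 39. For fl/fl against +/+ the block gave 8 members in effector and 1 in resting cells, with 3 between fl/fl and fl/+ effector cells and 0 for the interaction. On the compared groups alone there were 4 between states in fl/fl and 0 between fl/fl and +/+ effector cells. The fl/fl and +/+ effector comparison gave 5 with DESeq2, 10 without a filter on low counts, 1 on log2(FPKM + 1) and 0 on log2(FPKM + 0.1). Of all genes tested, 4.28% were called there with DESeq2, 3.72% on log2(FPKM + 1) and 1.72% on log2(FPKM + 0.1). Without the filter there were 3 between fl/fl and +/+ resting cells, 1 and 2 between fl/+ and +/+ effector and resting cells, and 5 between fl/fl and fl/+ effector cells, where DESeq2 gave 1. The share of all genes was not counted without the filter or on the compared groups alone. The cause of these moves was not tested.

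Leaving out 1 library at a time gave 4 to 12 members between states in fl/fl, 16 to 27 in fl/+ and 18 to 32 in +/+. It gave 0 to 10 between fl/fl and +/+ effector cells and 0 to 1 between the resting cells. For fl/+ against +/+ the range was 0 to 0 in effector and 0 to 1 in resting cells, and for fl/fl against fl/+ it was 0 to 6 in effector and 0 to 0 in resting cells. The interaction stayed at 0. The share of all genes called with a library left out was not counted. With 3 libraries a group and totals down to 1658073, levels of low members such as Slc52a3 and Slc39a4 rest on few reads.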
